A study of Mus musculus with 36 samples.

Results

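Immunoglobulin variable (V) genes were examined in the kidney of young adult mice, with heart and liver beside it. A V gene was taken when its symbol began with Ighv, Igkv or Iglv, it was not annotated as a pseudogene, and its counts summed to 10 or more over the 12 kidney libraries. This gave 115 genes of the 78239 counted, and of 216 V genes without a pseudogene label: 57 Ighv genes (heavy chain), 56 Igkv genes (kappa light chain) and 2 Iglv genes (lambda light chain). The samples were poly(A) RNA libraries from heart, kidney and liver of wild-type (WT) male C57BL/6NCrl mice from Charles River aged 8, 10 or 12 weeks, with 4 libraries in each of the 9 groups and no treatment. The labels did not say which libraries of different organs came from the same animal, so ages were compared within an organ. The exception is a test below of whether the change with age differed between organs. In its main form it treated libraries of different organs as independent. The study's methods call the 4 libraries of an age biological replicates, and the labels name no animals, so p-values measure the spread between these libraries. Bulk RNA cannot tell more cells of a type from more RNA per cell.

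An antibody chain begins as separate gene segments. In a developing B cell, one V segment is joined to a joining (J) segment, with a D segment between them in the heavy chain, and each B cell and its descendants then transcribe that one choice. A V gene that has not been joined is transcribed only weakly, so V gene reads in a solid organ come mainly from B cells and above all from plasma cells, which make antibody messenger RNA in very large amounts. The constant gene that follows sets the class: Ighm for IgM, Igha for IgA and the Ighg genes for IgG, while Jchain encodes the small chain that joins IgA or IgM units into polymers.

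The heavy chain genes lay on chromosome 12, the kappa genes on chromosome 6 and the lambda genes on chromosome 16 of GRCm39, the build to which the reads had been aligned. All 57 Ighv members lay on the minus strand, as did both Iglv members, whereas 22 Igkv members lay on the plus strand and 34 on the minus strand. Each V segment is followed by a recombination signal sequence of a heptamer, a spacer and a nonamer, which the RAG enzymes cut. The signals of 4 genes that recur below are shown with the heptamer and nonamer in capitals.
Igkv1-117 signal sequence, chr6:68098812-68098839, + strand: CACAGTGatacagaccctaACAAAAATA
Igkv1-110 signal sequence, chr6:68248252-68248279, + strand: CACAGTGatacagaccctaACAAAAATA
Ighv1-81 signal sequence, chr12:115883860-115883898, - strand: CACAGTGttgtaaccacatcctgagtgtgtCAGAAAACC
Iglv1 signal sequence, chr16:18903728-18903766, - strand: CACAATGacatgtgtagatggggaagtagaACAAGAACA
The 2 kappa signals had the spacer of 12 bases and the heavy chain and lambda signals the spacer of 23 bases. The heptamer CACAGTG stood directly after the annotated end of 50 of 57 Ighv members (87.7%) and 48 of 56 Igkv members (85.7%). It did so in 31 of 56 Ighv genes that missed the count threshold (55.4%), in 39 of 44 such Igkv genes (88.6%), in 25 of 70 Ighv pseudogenes (35.7%) and in 22 of 60 Igkv pseudogenes (36.7%). Neither Iglv member carried this exact heptamer. The first bases CAC were present in all 115 members.

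V promoters are known for the octamer ATGCAAAT, or ATTTGCAT when read from the other strand, to which octamer-binding (Oct) factors of B cells bind. The 120 bases upstream of the annotated start of 6 members are shown, 5 because they had the lowest adjusted p-values or were called by an alternative test below and Iglv1 as the main lambda gene, with the octamer in capitals wherever the exact letters occurred.
Igkv1-117 upstream, chr6:68097910-68098029, + strand: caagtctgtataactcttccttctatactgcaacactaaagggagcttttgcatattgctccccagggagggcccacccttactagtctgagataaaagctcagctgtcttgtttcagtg
Igkv12-44 upstream, chr6:69792139-69792258, - strand: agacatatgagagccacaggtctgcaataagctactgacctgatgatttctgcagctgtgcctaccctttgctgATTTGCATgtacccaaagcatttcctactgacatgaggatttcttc
Igkv4-59 upstream, chr6:69415742-69415861, - strand: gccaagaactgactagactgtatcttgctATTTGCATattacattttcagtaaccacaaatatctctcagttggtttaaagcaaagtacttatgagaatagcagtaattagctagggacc
Ighv14-2 upstream, chr12:113958519-113958638, - strand: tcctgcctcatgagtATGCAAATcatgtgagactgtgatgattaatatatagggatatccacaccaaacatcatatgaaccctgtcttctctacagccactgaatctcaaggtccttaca
Ighv4-1 upstream, chr12:113912417-113912536, - strand: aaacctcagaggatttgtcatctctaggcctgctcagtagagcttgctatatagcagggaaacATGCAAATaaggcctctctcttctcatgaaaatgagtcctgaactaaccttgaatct
Iglv1 upstream, chr16:18904251-18904370, - strand: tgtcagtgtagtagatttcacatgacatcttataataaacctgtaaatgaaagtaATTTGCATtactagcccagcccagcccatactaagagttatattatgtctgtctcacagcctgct
In the full window of 250 bases, searched on both strands, the octamer was found upstream of 49 of 57 Ighv members (86%), 42 of 56 Igkv members (75%) and both Iglv members. Every Ighv match read ATGCAAAT and every light chain match read ATTTGCAT along the gene's own strand. The same letters stood upstream of 330 of 21723 protein-coding genes (1.52%). Of the V genes that missed the threshold, 72 of 101 held it (71.3%), and of the V pseudogenes, 58 of 130 (44.6%). Igkv1-117 and Ighv1-81 had no exact match in this window.

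The V genes took few reads. Kidney libraries held 21323021 to 32670858 counted read pairs, and all 115 members together took 98 to 1744 of them, so most single genes rested on few counts. The 115 members held 5647 counts over the 12 kidney libraries, 336 over the 12 heart libraries and 724 over the 12 liver libraries. The 101 other V genes that were not pseudogenes added 228 kidney counts and the 130 V pseudogenes added 8. In all, 4 genes sat at the threshold with a kidney sum of 10, namely Igkv8-28, Ighv13-2, Ighv1-50 and Ighv1-69, and 4 just missed it with a sum of 9, namely Igkv1-122, Igkv5-45, Ighv2-5 and Ighv5-15.

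The summed V level was higher in every 12-week kidney than in any 8-week or 10-week kidney, but the 12-week kidneys differed widely. As CPM, the counts of a gene scaled to the same total of counted pairs in each library, the 115 members summed to 5.86, 8.24, 8.87 and 4.63 CPM in the 8-week kidneys, to 14.0, 3.68, 3.72 and 6.51 CPM at 10 weeks, and to 44.0, 58.0, 14.3 and 22.5 CPM at 12 weeks. The means were 6.90 ± 1.99 CPM (SD, n = 4), 6.99 ± 4.88 CPM and 34.7 ± 19.9 CPM. The mean at 12 weeks was 5.02 times that at 8 weeks, while the means at 10 and 8 weeks had a ratio of 1.01. Replicates 1 and 2 at 12 weeks stood well above the other 10 kidneys. They held 34.3% and 41.6% of the 12-week V counts with 28.1% and 25.8% of the 12-week counted pairs. Replicate 3 at 12 weeks lay only just above replicate 1 at 10 weeks. No p-value was computed for these sums, since the genes had been chosen on the kidney counts themselves.

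The classes differed in how far the 12-week kidneys stood clear. Ighv members summed to 2.81, 3.51, 3.95 and 1.99 CPM at 8 weeks, to 6.19, 1.28, 1.83 and 3.18 CPM at 10 weeks and to 17.6, 19.3, 5.17 and 8.77 CPM at 12 weeks, a ratio of means of 4.14. The 10-week replicate 1 lay above the 12-week replicate 3, so Ighv sums at these ages overlapped. Igkv members summed to 3.00, 4.08, 4.58 and 2.57 CPM at 8 weeks, to 7.48, 2.25, 1.73 and 3.15 CPM at 10 weeks and to 25.3, 37.0, 8.98 and 13.4 CPM at 12 weeks, a ratio of 5.94. Neither class overlapped between 12 and 8 weeks, and Igkv did not overlap between 12 and 10 weeks. Without replicates 1 and 2, the ratios were 2.27 and 3.15. Iglv members summed to 0.0469, 0.646, 0.342 and 0.0643 CPM at 8 weeks, to 0.356, 0.150, 0.166 and 0.185 CPM at 10 weeks and to 1.16, 1.69, 0.123 and 0.307 CPM at 12 weeks. The lambda ranges overlapped, and the ratio of 2.99 turned to 0.782 without replicates 1 and 2. Lambda counts made up 1.35% to 13.7% of all light chain V counts in the kidney libraries.

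**Figure D1:**
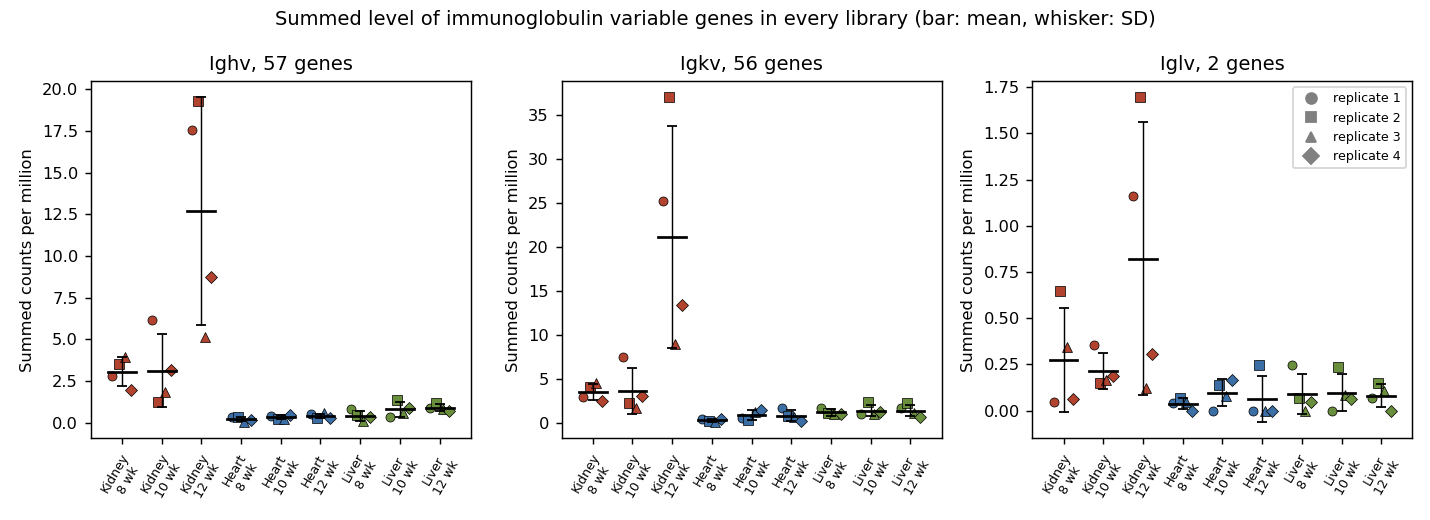
Summed CPM (y axis) of the 57 Ighv, 56 Igkv and 2 Iglv genes in each library, by organ and age (x axis), with replicates as marker shapes, the mean as a bar and the SD as a whisker. The 12-week kidneys reached 19.3 CPM for Ighv and 37.0 CPM for Igkv, with replicates 1 and 2 at the top, and heart and liver stayed under 1.40 CPM for Ighv and 2.41 CPM for Igkv.

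Heart and liver held far less V RNA, and the kidney had been used to choose the genes, so the organ contrast is a description. Summed over the 115 members, heart libraries ranged from 0.223 to 2.24 CPM with a median of 0.921, and liver libraries ranged from 1.09 to 4.04 CPM with a median of 1.88. The lowest kidney library, at 3.68 CPM, lay within the liver range and above the heart range. In heart the means were 0.596 ± 0.268 CPM (SD, n = 4) at 8 weeks, 1.36 ± 0.598 CPM at 10 weeks and 1.36 ± 0.690 CPM at 12 weeks. In liver they were 1.75 ± 0.745, 2.34 ± 1.18 and 2.43 ± 0.926 CPM. No member had 12-week values clear of the 8-week values in heart, where 4.83% of genes were clear in the higher and 2.99% in the lower direction, or in liver, where 1.96% and 2.58% were. Of the members, 34 had no count in any heart library and 12 none in any liver library, including for heart Igkv4-57-1, Igkv9-124 and Ighv4-1.

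Most members shared the higher 12-week level. The mean CPM was higher at 12 than at 8 weeks for 105 of 115 members (91.3%), against 45.5% of the 27480 genes that met the same kidney sum. It was higher for 50 of 57 Ighv, 53 of 56 Igkv and both Iglv members, and lower for 10: Ighv7-1, Ighv1-19, Ighv2-9-1, Ighv1-4, Ighv1-74, Ighv14-4, Ighv1-7, Igkv8-21, Igkv15-103 and Igkv14-100. Without replicates 1 and 2 it was higher for 82 members (71.3%), against 42.1% of all these genes. Between 8 and 10 weeks 54 members were higher, against 54.5% of these genes, and 57 lower. The 12-week libraries held 35.1% of the kidney read pairs, yet the median member had 71.2% of its counts there. Over 50% of the counts fell in those libraries for 95 members (82.6%), against 3.28% of the 27480 genes, and for 31 members (27%) against 0.426% when replicates 1 and 2 were left out. A gene could pass the threshold through the 12-week kidneys alone, and 4 members did so with no count at 8 or 10 weeks: Igkv4-57-1, Igkv4-80, Ighv1-66 and Ighv13-2. Other members had a few earlier counts but reached 10 only with those of 12 weeks. A higher 12-week level was thus in part built into the choice of members, and these shares are a description.

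**Figure D2:**
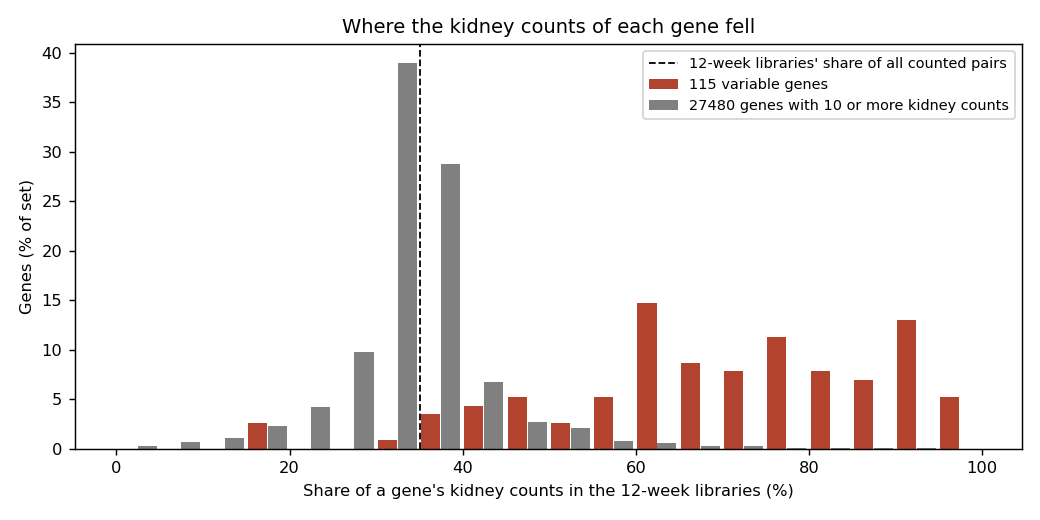
Share of each gene's kidney counts that fell in the 4 libraries of 12-week mice (x axis, %), as the percent of the 115 V genes (red) and of all 27480 genes with 10 or more kidney counts (grey). The grey bars centre on the 12-week libraries' 35.1% of counted pairs (dashed line), and 95 V genes lie beyond 50%.

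For 23 members (20%) every 12-week kidney was above every 8-week kidney, against 2.28% of the 27480 genes, and for 0 members the reverse held, against 3.15%. The 23 were 12 Ighv and 11 Igkv genes. Without 12-week replicate 3 there were 41 such members (35.7%), against 3.64% of the 27480 genes. Between 12 and 10 weeks 17 members were clear in the higher direction (background 2.38%) and 0 in the lower (4.61%). Between 10 and 8 weeks 0 members were clear in the higher direction (4%) and 3 in the lower (2.65%). The kidney sums that chose the members include the 12-week values. The comparisons with 12 weeks are thus a description and not evidence of a change.

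Single genes were then tested with edgeR's quasi-likelihood test on the counts, within kidney, with Benjamini-Hochberg adjustment over all 17649 genes that passed the count filter. The filter asked for a mean count of at least 10 in 1 age group and a count in at least 2 libraries. It kept 33 of the 115 members, and all 33 passed through the 12-week group only, so a higher 12-week level was built into their selection and their common direction is not evidence of a change. Between 12 and 8 weeks, 0 members were higher (background 0.0397%) and 0 lower (0.017%) at an adjusted p under 0.05. At an unadjusted p under 0.05 there were 29 of the 33, beside 11.7% of all genes tested, a count that their selection through the 12-week group favours. DESeq2 called 7 members higher (background 0.459%) and 0 lower (0.278%), and limma-voom 1 higher (0.0397%) and 0 lower. Without the count filter, edgeR called 32 of 115 higher (0.789% of 42077 genes) and 0 lower (0.43%). Between 12 and 10 weeks, 1 member, Igkv1-117, was higher (background 0.136%) and 0 were lower (0.346%), and 30 had an unadjusted p under 0.05, beside 16.4% of all genes tested. Between 10 and 8 weeks 0 members were higher (0.646%) or lower (0.283%), and 0 had an unadjusted p under 0.05. Without the count filter, 38 members were higher between 12 and 10 weeks (1.18%) and 0 lower (1.05%), and between 10 and 8 weeks 0 were higher (1.34%) and 1 lower, Igkv15-103 (1.05%). The call of Igkv1-117 was lost when 8-week replicate 2 or 3, 10-week replicate 2 or 3, or 12-week replicate 2 was left out, with 0 members higher in each case. Without 10-week replicate 4, 3 members were higher, beside 183 of all 17718 genes tested. Without 12-week replicate 1, 2 members were higher, beside 66 of 17600. With all libraries, 24 of the 17649 genes were higher, so calls rose in general in these fits. The comparisons of 12 weeks with 8 and with 10 weeks share the 12-week libraries. Without the count filter, the 115 members had still been chosen on kidney sums that include these libraries, which favours higher calls.

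Igkv1-117, a kappa V gene, was the V gene with the highest kidney level per kilobase of exon, at 3.47 CPM per kb over the 12 libraries. It lies on chr6:68098030-68098811 on the plus strand. Its levels were 0.0469, 0.283, 0.280 and 0.193 CPM at 8 weeks, 0.668, 0, 0.0998 and 0.0740 CPM at 10 weeks, and 4.90, 7.31, 2.42 and 0.546 CPM at 12 weeks. At 12 weeks, 3 kidneys were far above all younger kidneys, and replicate 4 was between 10-week replicate 1 and the rest. The log2 difference from 10 weeks was 4.31 ± 0.81 (SE), with an edgeR adjusted p of 0.0383. The gene had passed the count filter through the 12-week group only, so this p-value is not independent of how the gene was chosen. Against 8 weeks the difference was 4.17 ± 0.80 (edgeR adjusted p = 0.104), with all 4 libraries above all 4. In heart it took 22 counts and in liver 55.

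Igkv1-110, its close relative, came next at 2.65 CPM per kb. Its levels were 0.610, 0.0808, 0.498 and 0.257 CPM at 8 weeks, 0.713, 0.413, 0.0333 and 0.185 CPM at 10 weeks, and 4.41, 4.45, 0.123 and 0.955 CPM at 12 weeks. Replicates 1 and 2 at 12 weeks were high, while replicate 3, where Igkv1-117 was at 2.42 CPM, was among the low values. Against 8 weeks the log2 fold change was 2.82 ± 0.83 (edgeR adjusted p = 0.251). The 2 genes are shown by the last 250 bases of the V exon, with the bases at which they differ in capitals, because reads have to be told apart at these positions.
Igkv1-117 V exon, chr6:68098562-68098811, + strand: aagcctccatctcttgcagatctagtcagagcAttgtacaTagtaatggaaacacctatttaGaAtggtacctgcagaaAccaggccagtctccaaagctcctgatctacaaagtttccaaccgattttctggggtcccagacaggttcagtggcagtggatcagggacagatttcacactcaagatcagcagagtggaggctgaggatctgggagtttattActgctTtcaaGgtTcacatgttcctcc
Igkv1-110 V exon, chr6:68248002-68248251, + strand: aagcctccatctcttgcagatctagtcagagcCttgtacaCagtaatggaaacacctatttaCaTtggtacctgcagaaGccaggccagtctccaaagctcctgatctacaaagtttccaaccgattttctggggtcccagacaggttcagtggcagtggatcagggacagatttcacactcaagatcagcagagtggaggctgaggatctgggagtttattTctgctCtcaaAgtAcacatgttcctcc
The V exons of 313 bases differed at 10 positions (96.8% identical), 9 of them in the stretch shown. Such pairs are common: over the spliced genes, 61 of 115 members had another V gene at 95% identity or more, and 5 at 98% or more. Reads that fit 2 genes equally well were not counted, so values of close pairs are uncertain.

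As a share of all Igkv member counts, Igkv1-117 took 1.56% to 7.50% in the 8-week kidneys and 0% to 8.93% at 10 weeks, where the 0 of 60 counts in replicate 2 has an exact upper bound of 5.96%. At 12 weeks it took 19.4% (exact 95% binomial interval 16.7 to 22.3), 19.8% (17.5 to 22.2) and 26.9% (21.2 to 33.3) in replicates 1 to 3, and 4.07% (2.34 to 6.53) in replicate 4. It was the only member over 20% of its class in a kidney library with at least 100 counts of that class. The intervals cover counting error only. Igkv1-110 ranged from 1.37% of Igkv counts in 12-week replicate 3 to 20.3% in 8-week replicate 1. In liver, Igkv1-117 took 12.2% of all Igkv member counts (9.32 to 15.6) and in heart 10.2% (6.52 to 15.1).

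**Figure D3:**
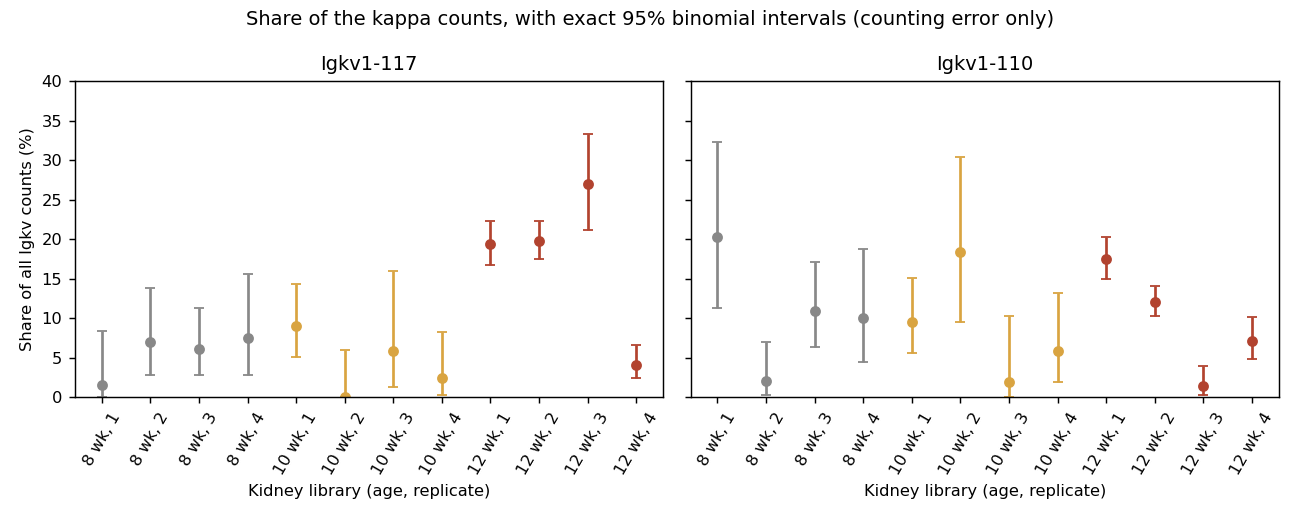
Share of all Igkv counts (y axis, %) taken by Igkv1-117 (left) and Igkv1-110 (right) in the 12 kidney libraries (x axis, by age and replicate), with exact 95% binomial intervals. Igkv1-117 stands at 19.4% to 26.9% in 3 of 4 libraries at 12 weeks and at or under 8.93% in the other 9 libraries.

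The lowest p-values between 12 and 8 weeks belonged to kappa genes. Igkv12-44 was at 0.141, 0, 0.0622 and 0 CPM at 8 weeks and at 1.16, 1.03, 0.410 and 0.409 CPM at 12 weeks. On the log2 scale the difference was 3.94 ± 0.72 (SE), with an edgeR adjusted p of 0.104 and without overlap between the ages. Igkv4-59 was at 0.0938, 0.0808, 0.156 and 0.129 CPM at 8 weeks and at 0.888, 0.631, 0.246 and 0.989 CPM at 12 weeks. All 4 older kidneys were again above all 4 younger ones, with a log2 fold change of 2.54 ± 0.51 (edgeR adjusted p = 0.110). Igkv12-46 had no count in the 4 kidneys aged 8 weeks and 0.429, 0.432, 0.123 and 0.546 CPM at 12 weeks. Set against a floor of 3 counts over the 8-week group, this was at least 14.4-fold higher. DESeq2 called Igkv1-117, Igkv12-44, Igkv12-46, Igkv4-59, Igkv6-17, Ighv14-2 and Ighv4-1 higher between these ages. Igkv12-44 and Igkv6-17 were named after their values were seen.

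Igkv4-57-1 was the plainest case of a gene not detected before 12 weeks. It had 0 counts in all 8 kidneys aged 8 or 10 weeks and 9, 0, 19 and 19 counts at 12 weeks. Replicate 2, which had the highest V sum, had none. The 12-week level was at least 14.7-fold higher than the floor over the 8-week group. Igkv9-124 also had no count at 8 weeks and then 0.122, 2.76, 0.0410 and 0.136 CPM at 12 weeks, at least 28.8-fold higher as a group. In that gene 83 of the 92 counts at 12 weeks came from replicate 2. The other kappa genes at high level were Igkv6-15, Igkv8-27 and Igkv10-96. Igkv6-15 had 3, 2, 5 and 5 counts at 8 weeks and 44, 34, 6 and 11 at 12 weeks. Igkv8-27 had 0, 1, 2 and 6 counts at 8 weeks and 14, 44, 9 and 19 at 12 weeks. For both, the 12-week CPM were all above the 8-week CPM, but 10-week replicate 1, with 19 and 18 counts, lay among the 12-week values. Igkv10-96 overlapped, since 8-week replicate 3 held 25 counts while 12-week replicate 3 held 2. Igkv6-23 had one of the smallest changes among the tested members, at 1.41 ± 0.69 (edgeR adjusted p = 0.456).

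Among heavy chain genes, Ighv1-81 had the highest level, at 1.16 CPM per kb. Its counts were 1, 1, 1 and 3 at 8 weeks, 0, 0, 3 and 1 at 10 weeks, and 66, 73, 1 and 1 at 12 weeks. The gene was thus high in replicates 1 and 2 and at the younger level in replicates 3 and 4, and its log2 fold change of 4.30 ± 1.16 against 8 weeks had an edgeR adjusted p of 0.216. Ighv14-2 was more even, at 0.188, 0.242, 0.0311 and 0.0322 CPM at 8 weeks and at 1.10, 0.366, 0.287 and 1.09 CPM at 12 weeks, with a log2 fold change of 2.66 ± 0.64 (edgeR adjusted p = 0.181). Ighv4-1 had 1 count in the 4 kidneys aged 8 weeks and 7, 3, 11 and 30 counts at 12 weeks. Here replicate 4 was the highest, with a log2 fold change of 5.06 ± 1.05 (edgeR adjusted p = 0.110). Ighv5-16 had 41 of its 46 counts at 12 weeks in replicate 2.

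Ighv9-3, Ighv1-55, Ighv1-26 and Ighv1-18 completed the heavy chain genes of highest level. Ighv9-3 had 0 to 6 counts per library at 8 weeks and 46, 31, 1 and 7 at 12 weeks. Ighv1-55 had 14, 1, 8 and 10 counts at 10 weeks and 13, 39, 1 and 8 at 12 weeks, so the ages overlapped. Ighv1-26 was present early, with 5, 8, 8 and 10 counts at 8 weeks and 26, 32, 6 and 18 at 12 weeks. Its log2 fold change of 1.29 ± 0.54 (edgeR adjusted p = 0.379) and that of Ighv1-18, 1.25 ± 0.62 (edgeR adjusted p = 0.458), were the smallest of the tested members. Iglv1, the main lambda V gene of these libraries, had 1, 16, 9 and 2 counts at 8 weeks and 25, 50, 3 and 8 at 12 weeks, with a log2 fold change of 1.48 ± 0.73 (edgeR adjusted p = 0.457). Iglv2 had 13 of its 15 counts at 12 weeks in replicate 1.

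**Figure D4:**
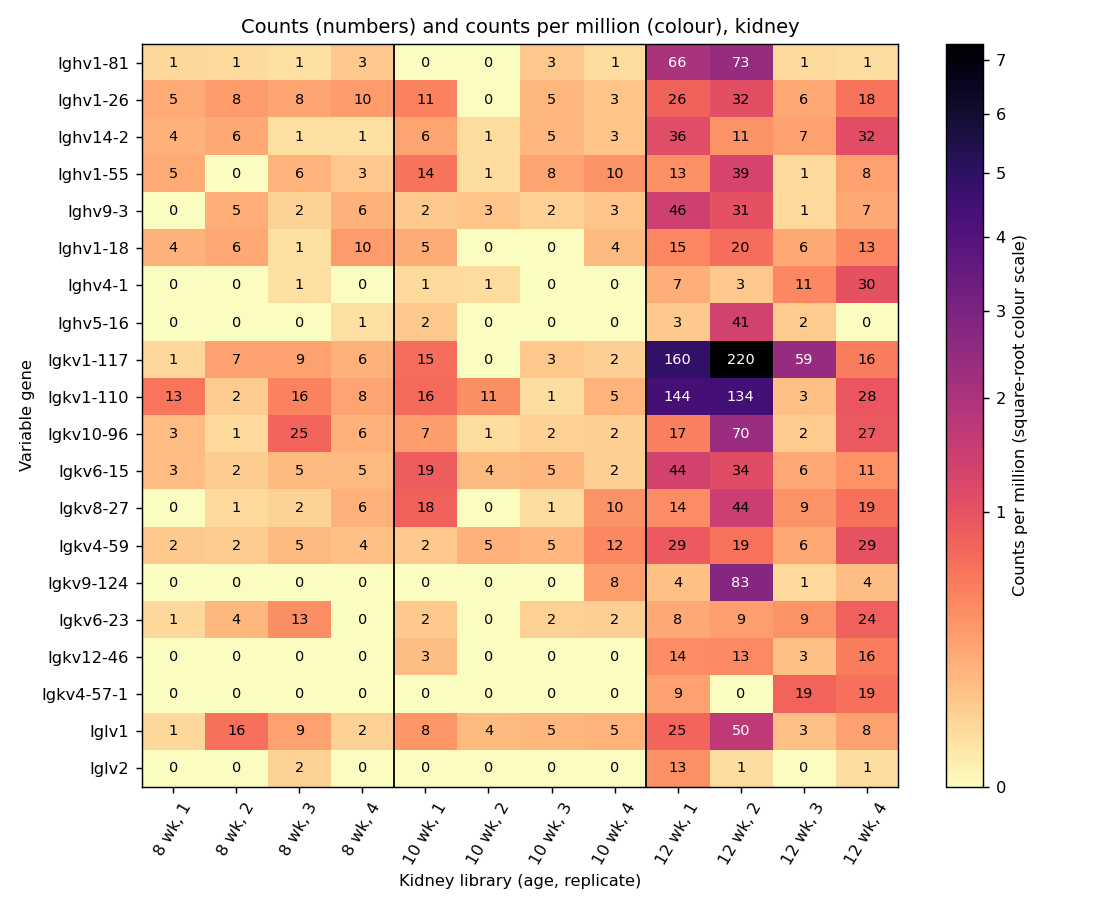
Counts (numbers) and CPM (colour, square-root scale) of 20 V genes (rows) in the 12 kidney libraries (columns, by age and replicate). High values cluster in replicates 1 and 2 at 12 weeks, with Igkv1-117 at 160 and 220 counts, while Igkv4-57-1 and Ighv4-1 are higher in replicates 3 and 4.

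The 12-week kidneys differed in which genes led as well as in the sum. Of the 57 members with at least 20 counts at 12 weeks, 30 had over 50% of these counts in a single library, which was replicate 1 for 9 genes, replicate 2 for 18, replicate 3 for 2 and replicate 4 for 1. For 9 genes a single library held over 75%. Among them were Ighv6-3 (84.4%), Ighv5-17 (81.2%) and Igkv17-127 (80%) in replicate 1, and Igkv3-10 (92.6%), Igkv9-124 (90.2%) and Ighv5-16 (89.1%) in replicate 2, of which Ighv6-3, Ighv5-17, Igkv17-127 and Igkv3-10 were named after their values were seen. Of the 10 Ighv genes with the most counts in each 12-week kidney, 2 to 5 were shared by any pair of kidneys and 1 by all 4. For Igkv, 3 to 5 were shared by a pair and 1 by all 4.

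More members were detected at 12 weeks, but not in equal numbers of V counts. Kidney libraries detected 47 to 68 members at 8 weeks, 43 to 71 at 10 weeks and 73 to 106 at 12 weeks. When the Ighv counts of each kidney were brought to the 34 counts of the lowest library, by the expected value of drawing them at random, 19.1 ± 1.6, 19.1 ± 1.5 and 19.6 ± 0.8 genes were detected at 8, 10 and 12 weeks (SD, n = 4). For Igkv, at 52 counts, the values were 22.0 ± 2.2, 21.9 ± 1.3 and 22.9 ± 1.9. The effective number of genes, which is the number of equally used genes that would give the same concentration of counts, was 14.0 ± 2.4, 13.7 ± 2.3 and 13.3 ± 0.5 for Ighv at that depth. For Igkv it was 14.1 ± 2.5, 13.0 ± 1.1 and 11.8 ± 4.0, and the 3 ages overlapped in each of these measures.

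V genes are grouped into families by sequence. The large Ighv1 family, with 32 members, took 64.0% of the Ighv counts at 8 weeks, 57.6% at 10 weeks and 51.2% at 12 weeks. Its sum was 1.96 ± 0.46 CPM at 8 weeks and 6.52 ± 4.19 CPM at 12 weeks, without overlap. Ighv5 went from 4.76% to 9.95% of Ighv counts between 8 and 12 weeks, and Ighv9 from 5.95% to 9.10%. Ighv7, with 2 members, held 14, 21 and 17 counts at 8, 10 and 12 weeks, and its share went from 4.17% to 1.11%. Among kappa families, Igkv1, the family of Igkv1-117 and Igkv1-110, took 17.3%, 15.6% and 32.4% of the Igkv counts at the 3 ages. Igkv12 took 2.04% and 6.90% and Igkv3 0.765% and 4.35% at 8 and 12 weeks, both without overlap in CPM. The 5 Igkv3 members held 3 counts at 8 weeks, 10 at 10 weeks and 111 at 12 weeks, so each passed the threshold through the 12-week kidneys. Most members of Igkv12 and Ighv5 did so too, so the higher 12-week values of these families were in part built into the choice of members. Igkv14 was at 0.250 ± 0.239 CPM at 8 weeks and at 0.260 ± 0.164 CPM at 12 weeks. Family shares pool the 4 libraries of an age, and 12-week replicates 1 and 2 gave most of the 12-week counts. In 12-week replicate 4, the 4 Igkv1 members held 28, 16, 6 and 3 of 393 Igkv counts. The Ighv5 members held 0, 5, 2, 2 and 0 of 257 Ighv counts there. The higher pooled shares of Igkv1 and Ighv5 thus did not hold in every 12-week kidney.

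Whether the kidney's change between 8 and 12 weeks differed from that of the other organs was tested by an interaction term in edgeR over all 36 libraries. Of the 33 members tested, 0 differed from heart (background 0.112% of 19716 genes) and 0 from liver (0.304%). At an unadjusted p under 0.05 there were 2 against heart and 7 against liver, and DESeq2 gave no adjusted p for any of the 33. In heart and in liver 0 members passed the count filter. Without it, 81 members were fitted in heart and 103 in liver, and edgeR called 0 of them between 12 and 8 weeks, against 1.43% of genes higher and 1.66% lower in heart and 0.588% and 0.372% in liver, with 8 at an unadjusted p under 0.05 in each, where 12.6% of all genes in heart and 9.04% in liver were. Heart libraries held 3 to 38 Igkv counts each and liver libraries 20 to 81, and how large a change could have been found at these counts was not tested.

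Constant genes were not used to choose the members. In the kidney, Igha went with the V sum from library to library: its levels were 5.11, 8.93, 11.6 and 4.60 CPM at 8 weeks, 17.1, 4.77, 3.66 and 6.03 CPM at 10 weeks, and 48.2, 69.8, 14.8 and 29.7 CPM at 12 weeks. The kidneys with the highest V sums were also the highest for Igha. The log2 fold change of Igha was 2.43 ± 0.51 between 12 and 8 weeks (edgeR adjusted p = 0.110) and 2.44 ± 0.51 between 12 and 10 weeks (edgeR adjusted p = 0.0533). Jchain was at 2.63, 1.78, 3.30 and 1.42 CPM at 8 weeks, at 4.23, 1.54, 1.03 and 2.66 CPM at 10 weeks and at 14.0, 19.3, 4.14 and 6.89 CPM at 12 weeks. Its log2 fold change between 12 and 8 weeks was 2.31 ± 0.48 (edgeR adjusted p = 0.110). The 10-week replicate 1 lay just above 12-week replicate 3, so Jchain at these ages overlapped. Ighm did not follow the same order: its highest value, 10.7 CPM, was in 12-week replicate 3, and replicate 1, second in V sum, was at 3.24 CPM. Ighg2c was at 65 counts in 12-week replicate 2 and at 0 to 8 counts in every other kidney. In heart, Ighg2c was at 0.892, 0.912, 0.983 and 0.855 CPM at 8 weeks and at 2.93, 2.13, 1.91 and 2.49 CPM at 12 weeks. It was the 1 constant gene of 4 tested in heart that edgeR called higher between these ages, beside 357 of all 15137 heart genes tested.

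Igha made up 79.8% of the heavy chain constant counts pooled over the 12 kidney libraries, to which 12-week replicates 1 and 2 gave the most. By library, Igha as a share of Igha and Ighm counts ran from 48.9% in 10-week replicate 3 to 93.7% in 12-week replicate 1, with a median of 67.3%. Pooled over the heart libraries it made up 6.91% and in liver 17.8%, where Ighm took 61.8% and 69.4% and Ighg2c 21.5% and 1.88%. The number of Ighv counts per Igha count ranged from 0.340 to 0.550 at 8 weeks, 0.268 to 0.528 at 10 weeks and 0.277 to 0.365 at 12 weeks. Per Ighm count it ranged from 0.425 to 5.42 over the kidneys. The 11 immunoglobulin joining segments, to which V genes are joined, summed to 0.280 to 0.579 CPM at 8 weeks, 0.225 to 0.499 CPM at 10 weeks and 0.478 to 1.16 CPM at 12 weeks, and 0 of them passed the count filter.

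**Figure D5:**
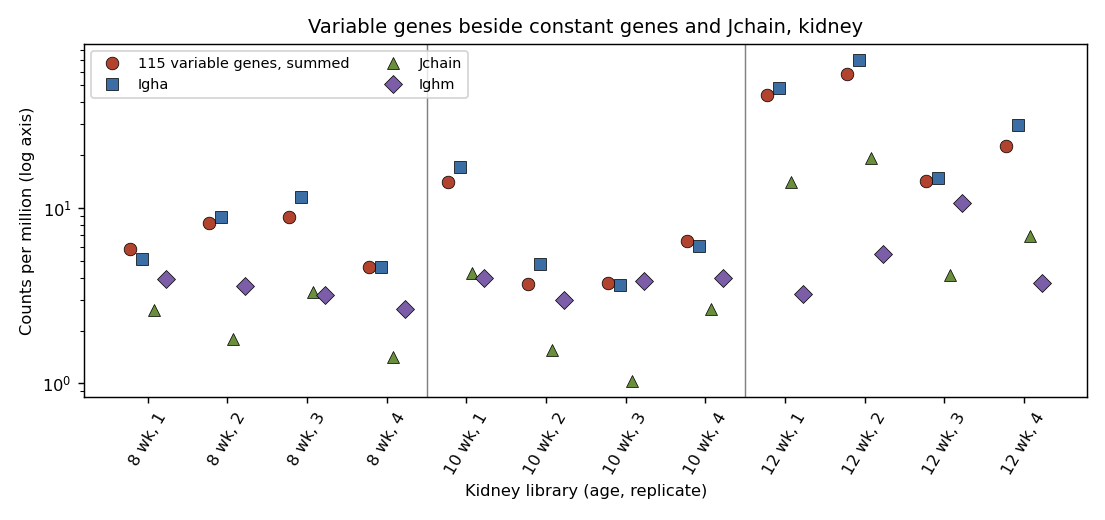
CPM (y axis, log scale) of the 115 V genes summed, of the constant genes Igha and Ighm, and of Jchain in the 12 kidney libraries (x axis, by age and replicate). V genes, Igha and Jchain are highest in replicates 1 and 2 at 12 weeks, at 44.0 and 58.0 CPM for the V genes, whereas Ighm peaks in 12-week replicate 3 at 10.7 CPM.

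Markers of the cells that carry V genes were read beside these values. Of the 127 genes on 15 marker lists, 71 passed the kidney filter. Between 12 and 8 weeks edgeR called 0 of them (background 0.0397% higher and 0.017% lower). At an unadjusted p under 0.05 there were 16, beside 11.7% of all genes tested. The B cell list of 18 genes summed to 12.1 to 15.9 CPM at 8 weeks, 13.4 to 16.8 at 10 weeks and 11.9 to 14.6 at 12 weeks. Among its defining genes, Cd79a had 0 to 6 counts per kidney and Ms4a1, which encodes CD20, 0 to 4. Of the 16 plasma cell genes, which include Jchain, 14 were tested and 4 had an unadjusted p under 0.05, beside the same 11.7%. Their sum, 275 to 302 CPM at 8 weeks and 264 to 398 CPM at 12 weeks, is mostly Xbp1 and Txndc5, which other secretory and epithelial cells also express. Mzb1, which assists antibody assembly in plasma cells, had 14 to 23 counts at 8 weeks and 9 to 17 at 12 weeks. Slamf7, a surface receptor of plasma cells, had a log2 fold change of 0.67 ± 0.20 (edgeR adjusted p = 0.250) and Prdm1, which encodes the plasma cell regulator Blimp-1, one of 0.66 ± 0.25 (edgeR adjusted p = 0.347). The recombination genes Rag1 and Rag2 had 1 count each in all 12 kidneys.

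Of 13 genes for the transport of polymeric antibody and for the homing of antibody-forming cells, 12 were tested and 0 were called. Their median log2 fold change between 12 and 8 weeks was 0.107, and Pigr and Ccl28, named next, both lay above it. At an unadjusted p under 0.05 there were 3, beside 11.7% of all genes tested. Pigr, the receptor that carries polymeric IgA across epithelia, had a log2 fold change of 0.57 ± 0.13 between 12 and 8 weeks (edgeR adjusted p = 0.141). Ccl28, a chemokine that draws IgA-secreting cells, had 928, 1088, 1866 and 677 counts at 8 weeks and 2250, 3118, 1742 and 1336 at 12 weeks, with a log2 fold change of 0.81 ± 0.34 (edgeR adjusted p = 0.381). The T cell list summed to 3.38 to 4.14 CPM at 8 weeks, 4.28 to 5.81 CPM at 10 weeks and 4.16 to 6.51 CPM at 12 weeks. Its part in the V values was not tested. Markers of neighbouring tissue were read from lists for fat, lymph node and adrenal, and their part in the V values was not tested. The fat list ranged from 0.249 to 53.9 CPM at 8 weeks and from 0.299 to 24.2 CPM at 12 weeks. Its brown fat gene Ucp1 had 285 counts in 12-week replicate 1 and 0 in replicate 2, the 2 kidneys of highest V level. The lymph node list summed to 189 to 241 CPM at 8 weeks and 218 to 255 at 12 weeks, nearly all of it Clu. Its chemokine Ccl19 had 17, 14, 6 and 7 counts at 8 weeks, 22, 15, 12 and 11 at 10 weeks, and 37, 25, 18 and 16 at 12 weeks, with a log2 fold change of 0.98 ± 0.43 between 12 and 8 weeks (edgeR adjusted p = 0.393). Of the vessel genes, Glycam1 had 9 counts over the 12 kidneys with 0 in 12-week replicates 1 and 2, and Madcam1 had 8 with 4 in replicate 2. The adrenal list summed to 4.41 to 5.77 CPM over the 12 kidneys. The kidney marker list stayed between 10596 and 12255 CPM in all 12 kidneys.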

How the data were processed

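RNA of flash-frozen organs was sequenced as 150-base read pairs. Per the study's methods and the submitters' notes, the authors trimmed with cutadapt 4.2, aligned to GRCm39 with an Ensembl annotation by STAR 2.7.11b and deposited STAR's counts of pairs per gene, without replicate pooling. The unstranded count column was used, in which only pairs mapped to 1 place and 1 gene are counted. Poly(A) libraries without strand marking cannot separate overlapping genes, and 3 of 115 members overlap another gene (Igkv6-17, Ighv13-2 and Iglv1). Kidney libraries held 21323021 to 32670858 counted pairs, heart 21743131 to 29791297 and liver 21031599 to 33637390. Names, positions and sequences came from GENCODE M39 (Ensembl 116), a later release on the same build, and 71 of 78239 identifiers had no entry there.

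Counts were tested with edgeR 4.0.16 (TMM factors, age as the only term, all ages of an organ in 1 fit, quasi-likelihood F test, Benjamini-Hochberg threshold 0.05). Genes with a mean count of at least 10 in at least 1 age and a count in at least 2 libraries were kept. DESeq2 1.42.0 and limma 3.58.1 were alternatives. On simulated counts for the 17649 kidney genes, 86% of genes changed 2-fold and 99% of those changed 4-fold were called, and 15 of 17449 unchanged genes. The changed genes were drawn only from genes above a minimum mean count that most V members did not reach. These rates are therefore not the rates for the V genes. CPM used all counted pairs. Levels per kilobase used the union of exons. Intervals are exact binomial at 95% and cover counting error only, as does the floor of 3 counts. No pair of replicates agreed within sampling noise (lowest chi-square per degree of freedom 5.90 over 54 pairs).

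The members and the 15 marker lists were chosen with earlier results of these data known. Named genes were the 6 Ighv, 6 Igkv and up to 3 Iglv members of highest kidney level per kilobase, any member past the threshold, the 5 highest and 5 lowest log2 fold changes of those tested between 12 and 8 weeks in kidney, any with over 20% of its class in a kidney library of at least 100 class counts, and genes beside the sum of 10. Alternatives were other normalizations, tests, filters, call rules and strand columns, 2-age fits, a replicate block and libraries left out. Leaving out replicates 1 and 2 of the 12-week kidneys together was chosen after seeing the data.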

Additional observations from a re-analysis of the deposited data

Results flagged for a closer look

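In 87 groups of 4 libraries, 1 library stood apart from the other 3 in 15 cases, and the groups share genes and libraries. The rule flags about 1 in 20 groups of continuous values by chance. A group with 0 in 3 libraries and any count in the other is always flagged, so 15 is not shown to be an excess. At 10 weeks, kidney replicate 1 stood apart for the Iglv sum and for Iglv1 (0.356 CPM, next 0.185), Igkv1-117 (0.668, next 0.0998), Igkv10-96 (0.312, next 0.0740), Igkv6-15 (0.846, next 0.166), Ighv5-16 (0.0891, others 0) and Igkv12-46 (0.134, others 0), and replicate 4 for Igkv9-124 (0.296, others 0). At 8 weeks, replicate 3 stood apart for Iglv2 (0.0622 CPM, others 0) and Ighv4-1 (0.0311, others 0), and replicate 4 for Ighv5-16 (0.0322, others 0), on 1 or 2 counts each. At 12 weeks, replicate 1 stood apart for Iglv2 (0.398 CPM, next 0.0341), and replicate 2 for Ighv5-16 (1.36, next 0.0918) and Igkv9-124 (2.76, next 0.136). In heart, 12-week replicate 2 had an Iglv sum of 0.249 CPM and the other 3 had 0.

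The kappa constant gene Igkc held 0 or 1 count per kidney in the unstranded column, and it overlaps Gm68839 on the opposite strand and Gm30211 on its own strand. STAR leaves reads that fit more than 1 gene uncounted. The strand columns together gave it 3.43 CPM in the lowest kidney library and 48.7 CPM in the highest, 12-week replicate 2. In unstranded libraries this sum cannot be told apart from Gm68839, and Gm30211 overlaps it as well.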

How the results depend on the processing

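Between 12 and 8 weeks in kidney, 0 members were higher by edgeR with the count filter, 7 by DESeq2, 1 by limma-voom and 32 without the count filter. Leaving out 1 library gave 0 to 2. It gave 2 without 12-week replicate 3, beside 10 of all 17757 genes tested, and 2 without replicate 4, beside 18 of 17714. Leaving out 12-week replicates 1 and 2 together, chosen after seeing the data, gave 1 of 13 tested. Between 10 and 8 weeks, 1 member was lower without the count filter. Between 12 and 10 weeks, 1 member was higher, against 38 without the filter, 0 in a fit of these 2 ages only, 2 on the first strand column and 0 to 3 with 1 library left out. Of all genes tested, 40 of 19266 were higher on the first strand column. In the fit that gave 3 members, 183 of 17718 were. DESeq2 gave no adjusted p for the 33 members. The number of members whose change differed between kidney and heart or liver was 0 under each setting that gave a value. The Iglv ratio of 2.99 was 7.47 without its leading gene, 0.782 without replicates 1 and 2 together, and 1.93 to 5.44 with 1 library left out. With 1 library left out the Ighv ratio was 3.42 to 4.96 and the Igkv ratio 4.46 to 7.09. The Ighv effective number was 16.3 at 10 weeks and 19.8 at 12 weeks on all counts, and 13.7 and 13.3 at equal counts. The 19 named members tested had passed the count filter through the 12-week group only, so a higher direction was in part built into their selection. Of their alternative values, 342 kept direction and side of the threshold, 23 passed it newly and 0 reversed. The causes were not tested. With 98 to 1744 V counts per kidney, depth limits single genes.

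With the replicate number as a replicate block, 0 members were higher between 12 and 8 weeks and 2 between 12 and 10 weeks. Of all 17649 genes tested, 4 and 40 were higher in these comparisons. Per the study's methods, mice were grouped by age at sacrifice, so kidneys of different ages came from different mice. Deviations of same-numbered kidneys of different ages correlated at -0.189 to 0.141 over 12 pairs. Across organs of 1 age, same-numbered libraries correlated at 0.0182 to 0.189 for kidney with heart, 0.0691 to 0.282 for kidney with liver (all 12 pairs positive, and all 4 pairs at 10 weeks over 0.1) and -0.0299 to 0.169 for heart with liver. Differently numbered libraries are not set beside these values, so they do not show whether libraries share an animal, and the labels do not give it. With the number as a block across organs, the change between 8 and 12 weeks differed between kidney and heart for 0 members and between kidney and liver for 0.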
